A study of Mus musculus with 12 samples.

Results

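The unfolded protein response and the secretory machinery of the endoplasmic reticulum (ER) were followed through 42 named mouse genes in 4 populations of sorted B cells. The genes were chosen by name, with earlier results of these data known. A gene counted as measured where a probe set of the array carried its symbol and no other. On that rule 41 of the 42 were measured, by 98 of the 45037 probe sets, and they stand among 18193 measured genes. The exception is Sec61g, a small subunit of the translocon, whose listed probe set also carried the symbols of pseudogenes. For a gene with several such probe sets the brightest one stands, as the log2 of the deposited intensity, and a level of 1 gene is not set against that of another.

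All cells came from female C57BL/6 mice and were sorted by flow cytometry without culture, and RNA was measured on Affymetrix arrays. Follicular B cells (FO) and age associated B cells (ABC) were taken from the spleens of mice older than 15 months, with 3 arrays each. B1 cells, which the sample titles call B1a, were taken from the peritoneal cavity of mice older than 15 months (3 arrays) and of mice aged 8 weeks (3 arrays). No genetic change or treatment is given for any group. The labels name neither the surface markers of the sort nor whether the arrays of a group came from separate mice, so a p-value here covers the spread among these arrays and nothing wider. Cell type and organ cannot be told apart where splenic cells are compared with peritoneal B1 cells.

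The unfolded protein response is the reaction of a cell to misfolded protein in the ER. It is sensed by the membrane proteins IRE1 alpha (Ern1), PERK (Eif2ak3) and ATF6. IRE1 alpha splices the mRNA of Xbp1 into one for an active transcription factor, and ATF6 is cut to release a transcription factor. PERK raises the translation of Atf4, a transcription factor that in turn raises the transcript of CHOP (Ddit3). The targets are chaperones, disulfide isomerases, the machinery of ER-associated degradation and the apparatus that moves proteins into and out of the ER. In the B lineage this programme is best known from plasma cells, whose antibody secretion requires Xbp1. These arrays measure transcript levels, so the splicing of Xbp1, the phosphorylation of PERK and the cleavage of ATF6 were not measured.

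Many of these genes are recognised by a short promoter element, the ER stress response element (ERSE), which was defined on chaperone promoters of this kind and consists of CCAAT and CCACG with 9 bases between them. Its letters were searched on both strands, together with ERSE-II (ATTGG and CCACG with 1 base between them), an XBP1 core site (TGACGTGG), the cyclic AMP element (TGACGTCA) and the C/EBP-ATF element (TGATGNAA). RefSeq promoters (GRCm38.p6, 250 bases before to 50 after each start) were in the table for 35 of the 42 genes. An ERSE match was present in 9 of the 35 (25.7%), against 0.137% of 27025 genes and 0.119% of 32851 promoters of that length. ERSE-II matched in 2 of 35 (5.71%, against 0.0444% of genes), the XBP1 core site in 1 (2.86%, against 0.714%), the C/EBP-ATF element in 1 (2.86%, against 4.51%) and the cyclic AMP element in 0 (against 2.03%). The stretches below are shown because they separate genes that share an element from genes that share a change in level. Each is written along the gene's own strand from 5′ to 3′, with the match in capitals and up to 20 bases on each side. The Herpud1 stretch carries 2 matches, the C/EBP-ATF element first and ERSE-II second. Of Dnajb11, whose match begins 8 bases into the transcript, the 11 matching bases alone are given.
Hspa5, chr2:34772005-34772063, plus strand: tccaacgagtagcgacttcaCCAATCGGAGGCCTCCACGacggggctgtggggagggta
Dnajc3, chr14:118937807-118937865, plus strand: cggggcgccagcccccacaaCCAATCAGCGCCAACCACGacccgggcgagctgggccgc
Creld2, chr15:88819500-88819558, plus strand: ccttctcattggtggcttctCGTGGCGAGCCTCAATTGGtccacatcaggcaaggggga
Derl3, chr10:75893222-75893280, plus strand: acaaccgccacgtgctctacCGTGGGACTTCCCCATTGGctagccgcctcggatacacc
Syvn1, chr19:6046512-6046570, plus strand: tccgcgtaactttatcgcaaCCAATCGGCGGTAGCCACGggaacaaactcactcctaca
Calr, chr8:84847055-84847113, minus strand: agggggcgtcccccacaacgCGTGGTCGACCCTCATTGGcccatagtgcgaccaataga
Canx, chr11:50325780-50325838, minus strand: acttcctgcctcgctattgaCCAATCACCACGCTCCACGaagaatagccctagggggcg
Herpud1, chr8:94386297-94386407, plus strand: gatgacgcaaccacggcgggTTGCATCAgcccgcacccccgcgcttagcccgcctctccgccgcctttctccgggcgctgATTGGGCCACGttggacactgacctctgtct
Dnajb11, chr16:22857852-22857862, plus strand: ATTGGCCCACG
Sec24d, chr3:123267450-123267495, plus strand: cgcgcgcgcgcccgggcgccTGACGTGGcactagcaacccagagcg

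In Hspa5, Dnajc3, Syvn1 and Canx the ERSE reads in the direction of the gene, and in Creld2, Derl3 and Calr it reads in the opposite direction. The other genes with a match were Hsp90b1, which holds 2, and Pdia6. The bases matched in Creld2 also lie in the promoter window of its neighbour Alg12, and those of Calr in that of 1700122E12Rik. A match is a run of letters and not a measured binding site.

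Before the results, 2 arrays have to be named. The third array of old B1 cells and the second of old FO cells had 75th percentiles of intensity of 346 and 378, against 400.1 to 412 for the other 10. Their highest correlation with any other array over all probe sets was 0.946 and 0.980, and at least 0.992 for the others. Against the mean of replicates 1 and 2, the third old B1 array read higher for 28 of the 41 genes and differed by over 0.3 for 17. Its largest departures were Edem3 at 1.04, Eif2ak3 at 0.81, Spcs2 at 0.69 and Creld2 at 0.62 above, and Herpud1 at -0.44 and Xbp1 at -0.40. The median standard deviation of the 41 genes within a group was 0.18 in FO, 0.12 in ABC, 0.17 in old B1 and 0.085 in young B1. Cell type markers are given as a description, since their lists were chosen with earlier results of these data known and cannot check the labels. Of 8 B1 cell markers, 8 were higher in old B1 than in old FO cells, and 7 were also higher in ABC than in FO cells. Of 5 ABC markers 4 were higher in ABC than in FO cells, and 5 of 5 follicular markers were lower in old B1 than in FO cells. No member was under the 25th percentile of all genes on any array, so no value rests on the dim end of the scale.

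The 41 genes were not at their highest in the same population. The highest group mean was in ABC for 25 genes, in old B1 for 10, in FO for 6 and in young B1 for 0. The lowest was in young B1 for 14, in FO for 13, in old B1 for 10 and in ABC for 4. The same split over all genes was not counted, so these numbers cannot be read as a trait of this set. Between any of the groups compared, 18 genes passed the test at least once and 23 did not. The share of all genes that passed at least once was not counted, so this number has no background either. A gene is called here at a Benjamini-Hochberg adjusted p under 0.05 in limma over all 18193 genes. No member lay under the median of all genes on any array, whereas the shares of all genes given below include dimmer genes. With only genes at or above the median fitted, 1372 were called for ABC against FO, 1914 for ABC against B1 and 2699 for B1 against FO cells. Among all genes the counts were 1812, 2334 and 2988. The share over all genes is therefore a low background for this set, and a share matched for brightness was not counted.

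**Figure D1:**
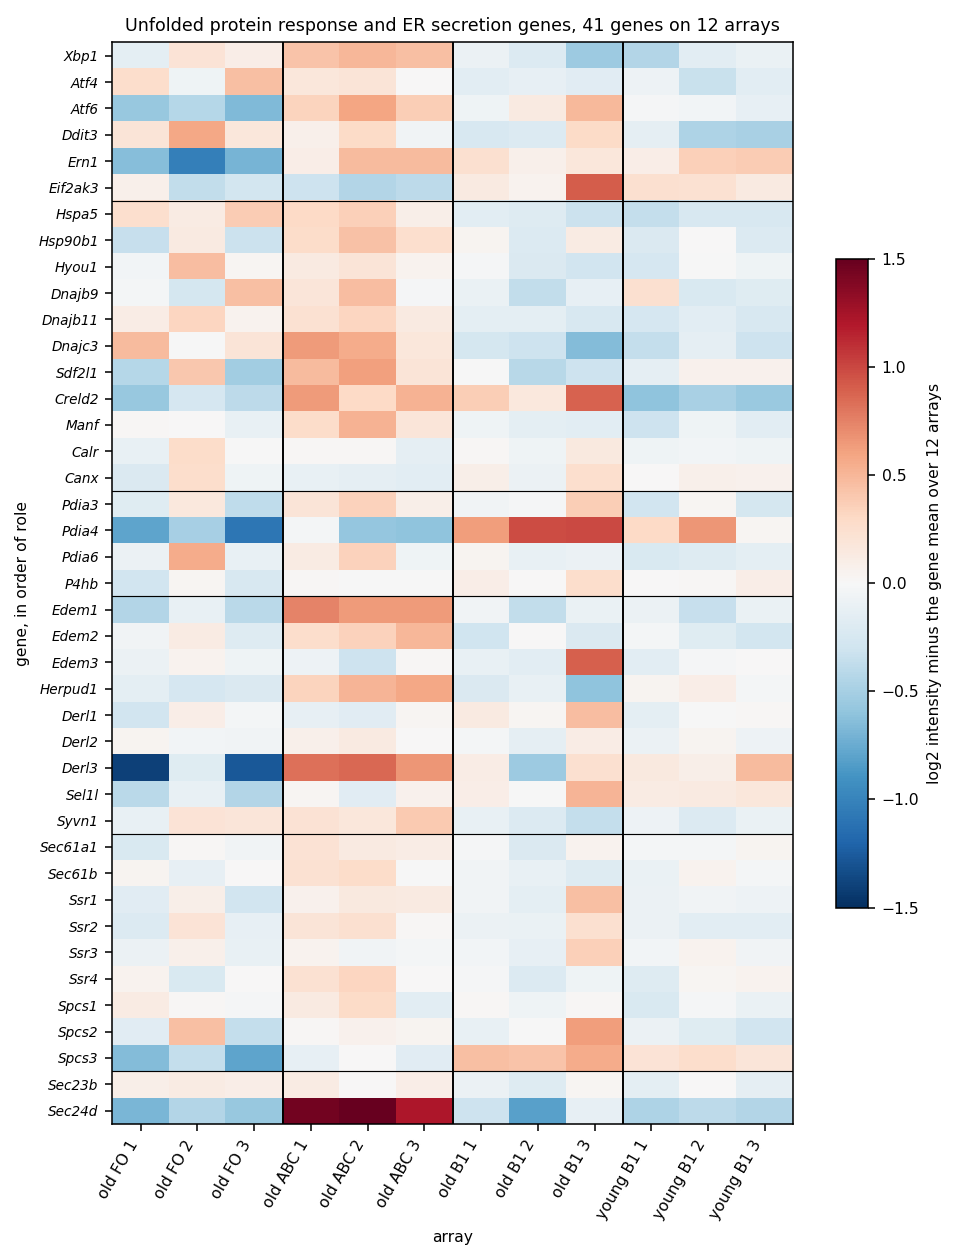
Log2 intensity of the 41 genes (rows, in order of role) on the 12 arrays (columns, 3 per group), each minus the mean of the gene over the 12 arrays; the colour bar runs from -1.5 to 1.5 on the log2 scale. The 3 old ABC columns are red for Sec24d, Derl3, Edem1 and Herpud1, the old FO columns are blue for Derl3, Ern1, Atf6 and Spcs3, and the third old B1 column stands out for Edem3, Eif2ak3 and Creld2.

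The first question was how ABC, a population that gathers with age, differ from follicular cells, both from spleens of mice older than 15 months. In old ABC against old FO cells, 8 of 41 genes (19.5%) were higher and 0 were lower, against 9.96% called among all genes, 7.12% higher and 2.84% lower. The 8 were the cargo-binding coat subunit Sec24d, the degradation genes Derl3, Edem1 and Herpud1, the sensors Ern1 and Atf6, the ER protein Creld2 and the signal peptidase subunit Spcs3. At an unadjusted p under 0.05 in limma there were 14. The share of all genes at that threshold was not counted, so this number has no background to stand against. The median difference of the 41 genes was 0.19 and that of all genes -0.03. The 3 ABC arrays lay above the 3 FO arrays for 13 genes and below them for 0, against 15.2% and 13.6% of all genes (28.8% in either direction).

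Sec24d chooses cargo for COPII vesicles, which carry proteins from the ER to the Golgi. It read 7.91, 8.15 and 8.02 in old FO cells, 10.05, 10.18 and 9.81 in old ABC, 8.29, 7.78 and 8.47 in old B1 and 8.13, 8.20 and 8.15 in young B1 cells. The ABC arrays stood above all 9 others, which overlapped among themselves. It was 3.95-fold higher in ABC than in FO cells (log2 difference 1.98 ± 0.17 SE, adjusted p = 4.4e-05) and 3.56-fold higher than in old B1 cells (1.83 ± 0.17, adjusted p = 6.9e-05). The other coat subunit of the set, Sec23b, differed by -0.03 from FO (95% interval -0.23 to 0.18) and by 0.16 from B1 cells (-0.05 to 0.37). Sec24d is the gene with an XBP1 core match in its promoter.

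The genes of ER-associated degradation, which return misfolded proteins to the cytosol for destruction, included 3 of 9 that were higher in ABC than in FO cells. Edem1, a mannosidase-like protein that hands misfolded glycoproteins to this pathway, read 9.74, 10.07 and 9.78 in FO, 10.93, 10.83 and 10.82 in ABC, 10.13, 9.82 and 10.09 in old B1 and 10.09, 9.84 and 10.08 in young B1 cells. All 3 ABC arrays stood above the 9 others. The difference from FO was 0.996 ± 0.13 (adjusted p = 5.9e-04), and by its other probe set 0.66 without a call (adjusted p = 0.12). Herpud1, an ER membrane protein of the same pathway, read 11.51, 11.40 and 11.44 in FO, 11.99, 12.16 and 12.23 in ABC, 11.44, 11.55 and 11.05 in old B1 and 11.69, 11.75 and 11.63 in young B1 cells. Again the ABC arrays did not overlap with any other group, and the difference from FO was 0.68 ± 0.13 (adjusted p = 0.0073).

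Derl3 belongs to the derlins, membrane proteins through which substrates leave the ER. It read 6.98, 8.19 and 7.10 in FO, 9.20, 9.23 and 9.03 in ABC, 8.48, 7.83 and 8.61 in old B1 and 8.52, 8.45 and 8.84 in young B1 cells. ABC arrays were the highest and 2 of the 3 FO arrays the lowest, while the second FO array lay within the range of the old B1 arrays. Derl3 was 3.32-fold higher in ABC than in FO cells (1.73 ± 0.30, adjusted p = 0.0042). Its relatives Derl1 and Derl2 differed by -0.01 (95% interval -0.32 to 0.29) and 0.09 (-0.12 to 0.30). For Edem2, Sel1l and Syvn1 the differences from FO were 0.41, 0.29 and 0.17, none of them called. The probe set that stands for Sel1l, the partner of the ubiquitin ligase Syvn1, was not the one that moved most: 2 of its other probe sets read 1.11 and 0.96 higher in ABC and were called among all probe sets.

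Of the sensors, Ern1 and Atf6 were higher in ABC than in FO cells. Atf6 read 9.56, 9.70 and 9.46 in FO, 10.46, 10.72 and 10.50 in ABC, 10.07, 10.26 and 10.61 in old B1 and 10.11, 10.08 and 9.9997 in young B1 cells. The FO arrays were the lowest of all 12. The difference was 0.98 ± 0.14 (1.98-fold, adjusted p = 0.0012), and all 3 Atf6 probe sets were called higher. Ern1 read 7.65, 7.26 and 7.59 in FO, 8.39, 8.77 and 8.77 in ABC, 8.53, 8.36 and 8.46 in old B1 and 8.38, 8.65 and 8.67 in young B1 cells, with the FO arrays again below the rest. Its difference was 1.14 ± 0.15 (2.20-fold, adjusted p = 5.9e-04), but the 4 other Ern1 probe sets differed by -0.22 to 0.24 without a call, and the mean of its 5 probe sets gave 0.23 (adjusted p = 0.13). The call on Ern1 therefore rests on 1 probe set.

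The branch of PERK did not pass the test in this comparison. Eif2ak3 differed by -0.20, Atf4 by -0.10 and Ddit3 by -0.21, with 95% intervals of -0.65 to 0.26, -0.39 to 0.20 and -0.61 to 0.19. Xbp1 read 10.53, 10.88 and 10.78 in FO and 11.10, 11.18 and 11.13 in ABC. The ABC arrays lay above the FO arrays, but the difference of 0.41 ± 0.15 was not called (adjusted p = 0.12).

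Of the 11 chaperones and their partners 1 was called. It was Creld2, an ER protein whose transcript rises under ER stress, at 10.03, 10.36 and 10.21 in FO and 11.24, 10.90 and 11.12 in ABC. The groups did not overlap, and the difference was 0.89 ± 0.18 (1.85-fold, adjusted p = 0.0088). Hspa5 (BiP), the most widely used readout of the unfolded protein response, read 12.62, 12.49 and 12.75 in FO and 12.67, 12.72 and 12.46 in ABC. Those arrays overlapped, and the difference was -0.0022 with a 95% interval of -0.24 to 0.24. The lectin chaperones Calr and Canx differed by -0.09 (-0.34 to 0.17) and -0.12 (-0.41 to 0.17). Hsp90b1 (GRP94) read 11.26, 11.75 and 11.30 in FO and 11.89, 12.06 and 11.87 in ABC, without overlap. Its difference of 0.50 ± 0.15 was not called (adjusted p = 0.065), whereas its other probe set, at 0.73, was.

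The translocon, signal sequence receptor and signal peptidase genes ran from 0.03 to 0.50 above FO in all 9 cases, and 1 was called. This was Spcs3, at 10.40, 10.70 and 10.26 in FO and 10.93, 11.06 and 10.88 in ABC, a difference of 0.50 ± 0.12 (adjusted p = 0.021). The Spcs3 call was lost without FO replicate 1 (adjusted p = 0.074), FO replicate 3 (0.084), ABC replicate 1 (0.056) or ABC replicate 2 (0.079). None of the 4 disulfide isomerases was called. Derl3, Edem1 and Sec24d were called under all 27 settings tried. Centring each array on its median moved the median of all genes from -0.03 to -0.43 and left 4 members higher and 1, Atf4, lower. Under it Atf6 (0.59, adjusted p = 0.069), Creld2 (0.49, 0.13), Herpud1 (0.28, 0.12) and Spcs3 (0.11, 0.63) lost their calls.

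**Figure D2:**
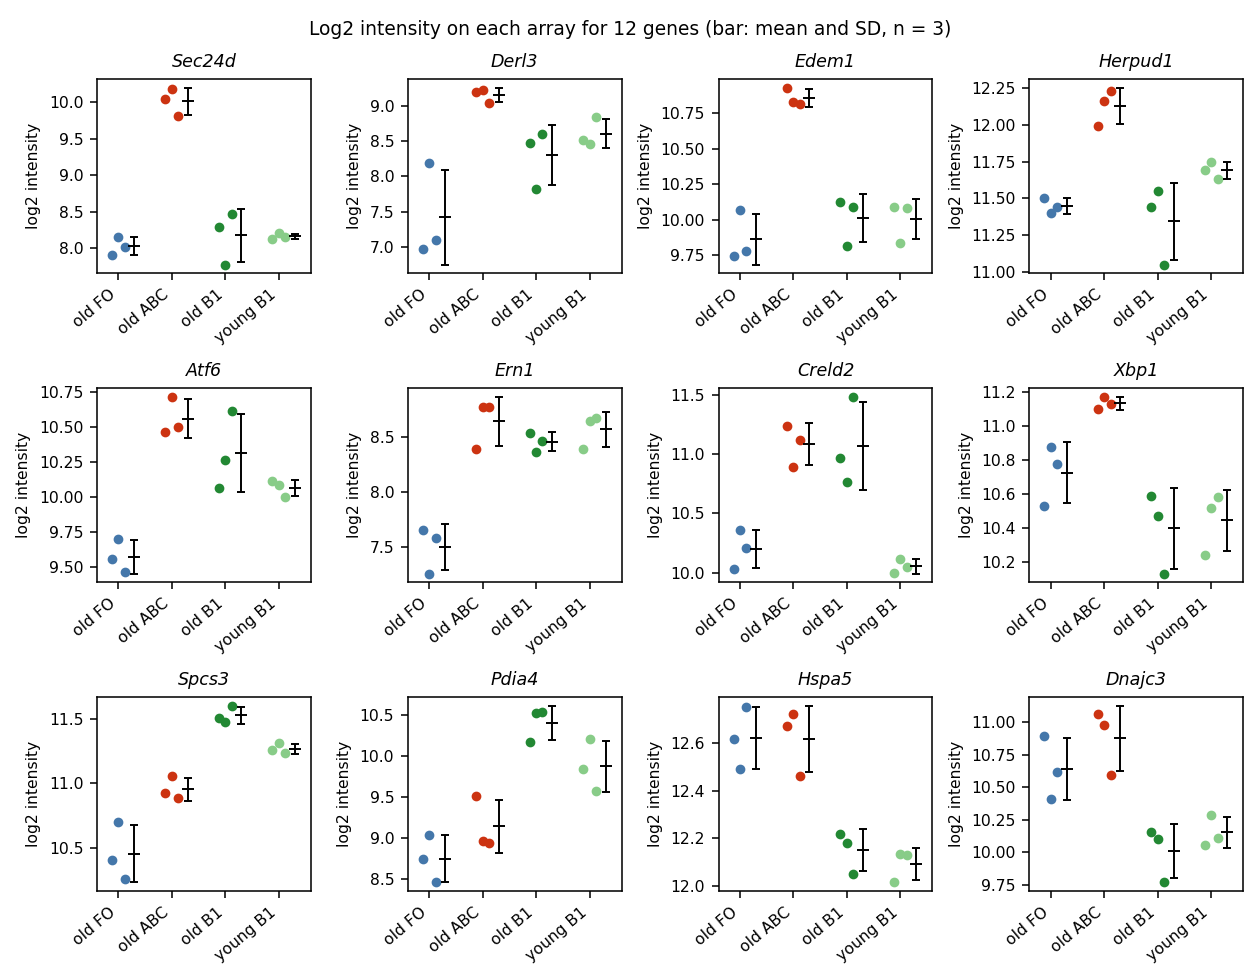
Log2 intensity of 12 of the genes on each array, in panels by gene; points are arrays in the order of replicate 1 to 3, horizontal bars are group means and error bars are SD (n = 3). The 3 old ABC points of Sec24d sit between 9.81 and 10.18 and all other points between 7.78 and 8.47, and the old B1 points of Hspa5 sit between 12.05 and 12.22, below every FO and ABC point.

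The second comparison set ABC against B1 cells of mice of the same age. Here 13 of 41 genes (31.7%) passed the test, with 10 above and 3 below their level in B1 cells, against 12.8% of all genes, 7.4% higher and 5.43% lower. At an unadjusted p under 0.05 there were 18, again without a count over all genes. The median difference was 0.19, that of all genes 0.02. The ABC arrays lay above the B1 arrays for 19 genes and below them for 4, against 17% and 11.8% of all genes (28.8% in either direction). This comparison shares its ABC arrays with the one before, so their agreement on a gene is not independent. Sec24d, Edem1 and Herpud1 were higher in ABC than in both other old populations, with differences from old B1 cells of 1.83, 0.85 and 0.78.

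Xbp1 was among the genes called here. It read 10.59, 10.47 and 10.13 in old B1 and 10.24, 10.51 and 10.58 in young B1 cells, below the 11.10 to 11.18 of ABC. Its difference was 0.74 ± 0.15 (1.67-fold, adjusted p = 0.0072), and all 4 Xbp1 probe sets were called, at 0.74 to 0.79. Of the degradation genes, Edem2 was 0.54 and Syvn1 0.48 higher in ABC (adjusted p = 0.017 and 0.021). The other Edem2 probe set read -0.28 without a call, and the call on Edem2 was lost with the mean of both (0.13, adjusted p = 0.52), with cyclic loess (adjusted p = 0.13) and with quantile normalization repeated (adjusted p = 0.079). Edem1, at 0.85 by its brightest probe set, differed by 0.34 without a call by its other. Derl3 differed by 0.85 ± 0.30 without a call (adjusted p = 0.10).

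BiP and 2 of its J-domain partners were lower in B1 cells than in ABC. Hspa5 read 12.22, 12.18 and 12.05 in old B1 and 12.01, 12.13 and 12.13 in young B1 cells, below all 6 splenic arrays. It was 0.47 ± 0.11 higher in ABC than in old B1 cells (1.38-fold, adjusted p = 0.016). The 3 Hspa5 probe sets read 0.47, 0.45 and -0.02, the last without a call, and their mean gave 0.30 without a call (adjusted p = 0.13). Dnajc3 (p58IPK), which works with BiP, read 10.89, 10.41 and 10.62 in FO, 11.06, 10.98 and 10.59 in ABC, 10.15, 10.10 and 9.77 in old B1 and 10.06, 10.29 and 10.11 in young B1 cells. The B1 arrays of both ages lay below the splenic arrays, and the difference between ABC and old B1 was 0.87 ± 0.17 (1.83-fold, adjusted p = 0.0068). That call was not kept with the mean of the 5 Dnajc3 probe sets, which gave 0.48 (adjusted p = 0.071). Dnajb11 (ERdj3), another partner, was 0.40 ± 0.10 higher in ABC (adjusted p = 0.022), and the secreted ER protein Manf 0.45 ± 0.11 (adjusted p = 0.024). Hspa5 and Dnajc3 carry ERSE and Dnajb11 ERSE-II, while Calr and Canx, with ERSE too, differed by -0.07 (95% interval -0.32 to 0.19) and -0.22 (-0.51 to 0.07).

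The 3 genes lower in ABC than in B1 cells were Pdia4, Spcs3 and Eif2ak3. Pdia4, a disulfide isomerase also named ERp72, read 8.75, 9.04 and 8.46 in FO, 9.52, 8.97 and 8.94 in ABC, 10.17, 10.52 and 10.53 in old B1 and 9.84, 10.20 and 9.58 in young B1 cells. Every B1 array lay above every splenic array. Pdia4 was 2.40-fold higher in old B1 than in ABC (log2 difference, ABC minus B1, -1.26 ± 0.22, adjusted p = 0.0034). Its other probe set differed by -0.44 and was not called. The remaining isomerases Pdia3, Pdia6 and P4hb differed by 0.12, 0.19 and -0.12, none called. Spcs3 read 11.51, 11.48 and 11.61 in old B1 and 11.26, 11.31 and 11.24 in young B1 cells, above all splenic arrays, and the difference was -0.58 ± 0.12 (adjusted p = 0.0084).

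Eif2ak3 read 11.13, 10.68 and 10.77 in FO, 10.73, 10.61 and 10.65 in ABC, 11.19, 11.10 and 11.96 in old B1 and 11.29, 11.28 and 11.18 in young B1 cells. ABC arrays lay below all B1 arrays, and the third old B1 array was far above the rest. The difference was -0.75 ± 0.21 (adjusted p = 0.036), and without the third old B1 array it was -0.48 (adjusted p = 0.034). This call was lost without FO replicate 3 (adjusted p = 0.054), ABC replicate 1, 2 or 3 (0.079, 0.11 and 0.093) or young B1 replicate 1, 2 or 3 (0.057, 0.058 and 0.057). Without the FO array or 1 of the young B1 arrays the difference itself stayed at -0.75.

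Several calls on the smaller differences between ABC and B1 cells were lost when 1 array was left out. The differences kept their sign, at 0.44 and 0.42 for Hspa5 without ABC replicate 1 and 2. For Syvn1 it was 0.50 without ABC replicate 1, and for Manf 0.35 without ABC replicate 2. Such a fit also has fewer arrays for its estimate of the spread. A lost call therefore does not show that 1 array carried the difference. Hspa5 lost its call without ABC replicate 1 (adjusted p = 0.061) or 2 (0.068), and Dnajb11 without the same arrays (0.068 and 0.088). Manf lost it without ABC replicate 1 (0.054), ABC replicate 2 (0.090) or old B1 replicate 2 (0.063). Edem2 lost it without ABC replicate 3 (0.063) or old B1 replicate 1 (0.057), and Syvn1 without ABC replicate 1 (0.053) or 3 (0.076). Without ABC replicate 1 the count of called members was 8 instead of 13. Sec24d, Edem1, Xbp1, Pdia4 and Spcs3 were called under all 27 settings. Centring arrays on their medians left 5 higher and 2 lower, with the median of all genes at -0.11, and Hspa5, Dnajb11, Manf, Edem2, Syvn1 and Eif2ak3 lost their calls (adjusted p from 0.077 to 0.34).

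**Figure D3:**
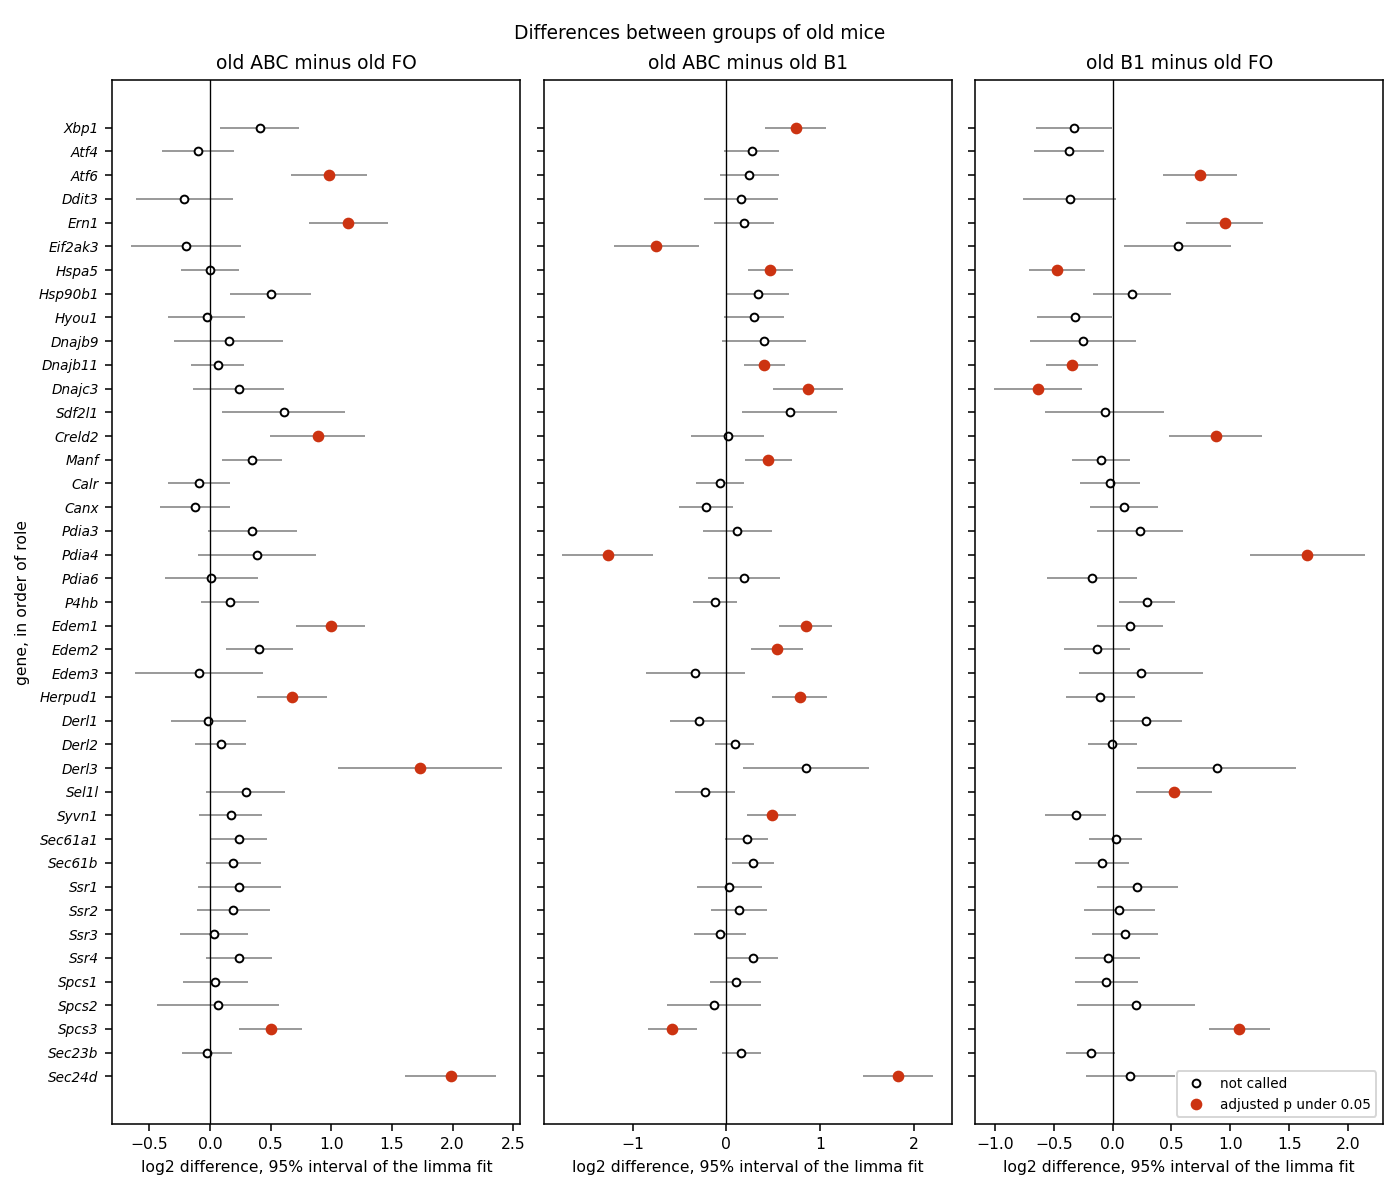
Log2 differences of the 41 genes between the old populations, in 3 panels (ABC minus FO, ABC minus B1, B1 minus FO), with 95% intervals of the limma fit as horizontal lines; filled points passed an adjusted p under 0.05. Sec24d lies near 2 in both panels with ABC and at 0.15 in B1 minus FO, while Pdia4 lies at -1.26 against B1 and at 1.65 in B1 minus FO.

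The third comparison set old B1 cells against old FO cells. In it 9 of 41 genes (22.0%) passed the test, with 6 above and 3 below their level in FO cells, against 16.4% of all genes, 8.4% higher and 8.02% lower. At an unadjusted p under 0.05 there were 16, also without a count over all genes. The median difference of 0.02 was close to that of all genes, -0.04. B1 arrays lay above FO arrays for 6 genes and below them for 5, against 12.3% and 16.6% of all genes (28.9% in either direction), so that the set as a whole stood near the background. It shares its arrays with both earlier comparisons. The 16.4% includes genes under the median of all genes, where no member lay, so it is a low background for this set.

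Pdia4 was 3.15-fold higher in B1 than in FO cells (1.65 ± 0.22, adjusted p = 4.9e-04) by the probe set described above and differed by 0.24 without a call by its other. Spcs3 was 2.11-fold higher (1.08 ± 0.12, adjusted p = 1.3e-04), so that its order was B1 above ABC above FO with each step called. Signal peptidase cuts the leader from proteins as they enter the ER, and its other subunits Spcs1 and Spcs2 differed by -0.05 and 0.20 without a call. Ern1 was 0.95 ± 0.15 higher by 1 of its 5 probe sets (adjusted p = 0.0013), Atf6 0.74 ± 0.14 (adjusted p = 0.0048) and Creld2 0.87 ± 0.18 (adjusted p = 0.0063). For Atf6 the other 2 probe sets were not called here, at 0.66 (adjusted p = 0.090) and 0.47 (adjusted p = 0.12). By their brightest probe sets these 3 genes were higher in ABC and in B1 than in FO cells, and between ABC and B1 they differed by 0.19, 0.24 and 0.01 without a call. For Creld2 the 95% interval of that difference was -0.38 to 0.41, and for Atf6 1 other probe set was called higher in ABC than in B1 cells, at 0.68 (adjusted p = 0.037).

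Sel1l was 0.52 ± 0.15 higher in B1 than in FO cells (adjusted p = 0.034), at 10.79, 11.09 and 10.77 in FO and 11.30, 11.20 and 11.72 in old B1 cells. For Derl1, which was not called by its brightest probe set (0.28), the 3 other probe sets were called higher at 0.33 to 1.19. In the other direction, Pdia6, Ddit3 and Syvn1 were not called by their brightest probe sets. Their other probe sets were called lower, at -1.33, -0.88 and -0.45. Hspa5 was 0.47 ± 0.11 lower in B1 than in FO cells (adjusted p = 0.013), Dnajc3 0.63 ± 0.17 lower (adjusted p = 0.028) and Dnajb11 0.34 ± 0.10 lower (adjusted p = 0.040). With the mean of the probe sets of a gene, Hspa5 (-0.32, adjusted p = 0.085) and Dnajc3 (-0.39, adjusted p = 0.12) were not called. By their brightest probe sets BiP and these 2 partners were thus lower in old B1 cells than in both splenic populations, in comparisons that share the B1 arrays.

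Calls on these smaller differences were also lost when 1 array was left out. Leaving out an ABC or young B1 array changes the estimate of the spread and not the difference, which stayed at 0.52 for Sel1l. Without old B1 replicate 3 that difference was 0.37, and that of Dnajc3 was -0.51 without FO replicate 1. Without FO replicate 3 the count was 5, with Hspa5 at an adjusted p of 0.059, Dnajc3 at 0.073, Dnajb11 at 0.051 and Sel1l at 0.12. Dnajc3 was also lost without FO replicate 1 (0.11) or old B1 replicate 3 (0.064). Sel1l was also lost without FO replicate 1 (0.11), ABC replicate 1 (0.051), old B1 replicate 3 (0.064) or young B1 replicate 1, 2 or 3 (0.052, 0.053 and 0.054). Dnajb11 was also lost without FO replicate 1 (0.075) or 2 (0.11), ABC replicate 1 (0.063), old B1 replicate 1, 2 or 3 (0.073, 0.069 and 0.076) or young B1 replicate 1, 2 or 3 (0.059, 0.058 and 0.064). Centring arrays on their medians moved the median of all genes to -0.30 and turned the split of 6 higher and 3 lower into 3 higher and 7 lower, with Atf6 (0.47, adjusted p = 0.15), Creld2 (0.61, 0.094) and Sel1l (0.26, 0.41) no longer called.

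The genes with an ERSE match did not move as 1 group. Between ABC and FO cells 2 of the 9 were higher (Creld2 and Derl3), with a median difference of 0.17, against 4 of 25 genes with a promoter and no ERSE match, with a median of 0.19. Between ABC and B1 cells 3 of the 9 were higher (Hspa5, Dnajc3 and Syvn1), with a median of 0.34, against 6 higher and 2 lower of the 25, with a median of 0.16. Between B1 and FO cells 1 was higher and 2 were lower of the 9, and 3 were higher and 1 was lower of the 25. Of all 14452 measured genes with a promoter, 1022 were higher and 410 lower in ABC than in FO cells. The counts were 1047 and 788 for ABC against B1 and 1240 and 1187 for B1 against FO cells. Of 11 genes outside the set with an ERSE match, 1 was higher and 1 lower in ABC than in FO cells. With 9 genes, shares called cannot separate those with ERSE from those without. Alg12, whose promoter window shares the ERSE bases of Creld2, differed by -0.09 between ABC and FO cells without a call (adjusted p = 0.87), where Creld2 differed by 0.89. Herpud1, with ERSE-II and the C/EBP-ATF element, and Sec24d, with the XBP1 core site, were higher in ABC than in both FO and B1 cells, and Dnajb11, with ERSE-II, was not called between ABC and FO cells (0.06).

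**Figure D4:**
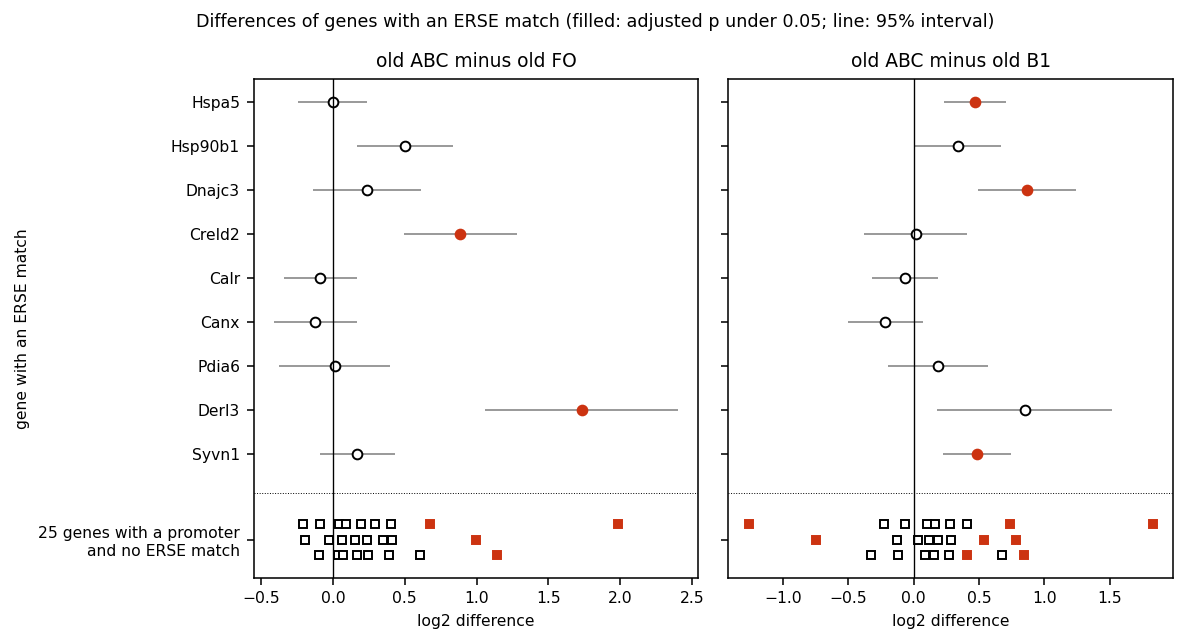
Log2 differences of the 9 genes with an ERSE match (circles, with 95% intervals as lines) and of the 25 measured genes with a listed promoter and no ERSE match (squares, spread vertically only for sight), for ABC minus FO (left) and ABC minus B1 (right); filled symbols passed an adjusted p under 0.05. Derl3 and Creld2 are filled on the left and Hspa5, Dnajc3 and Syvn1 on the right.

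The remaining question was age. In B1 cells of mice older than 15 months against 8 weeks, 0 of 41 genes were called by limma, against 0.291% of all genes, 0.159% higher and 0.132% lower. At an unadjusted p under 0.05, a threshold not counted over all genes, there were 4, namely Creld2, Pdia4 (0.53), Spcs3 (0.26) and Herpud1 (-0.34). The median difference was 0.05 and that of all genes -0.01. The old arrays lay above the young arrays for 4 genes and below them for 1, against 6.14% and 7.75% of all genes (13.9% in either direction). For Hspa5 the difference was 0.06 with a 95% interval of -0.18 to 0.30, and for Xbp1 -0.05 with -0.37 to 0.28.

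Creld2 came closest to a call. It read 10.97, 10.76 and 11.49 in old B1 cells and 9.995, 10.11 and 10.04 in young B1 cells. The groups did not overlap, the young arrays lay beside those of old FO cells and the old arrays beside those of ABC. The difference was 1.02 ± 0.18 (2.03-fold, 95% interval 0.63 to 1.41, adjusted p = 0.051). It ran from 0.82 to 1.18 over the 27 settings, with adjusted p from 0.0034 to 0.33, and it passed in 10 of them. The third old B1 array is the one that stands apart: without it the difference was 0.82 and was called (adjusted p = 0.023), and without old B1 replicate 2 it was 1.18 (adjusted p = 0.034). Pdia4, Spcs2 and Edem3 stood at 0.53, 0.36 and 0.26 with all arrays and at 0.47, 0.12 and -0.08 without the third old B1 array, and none was called either way.

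**Figure D5:**
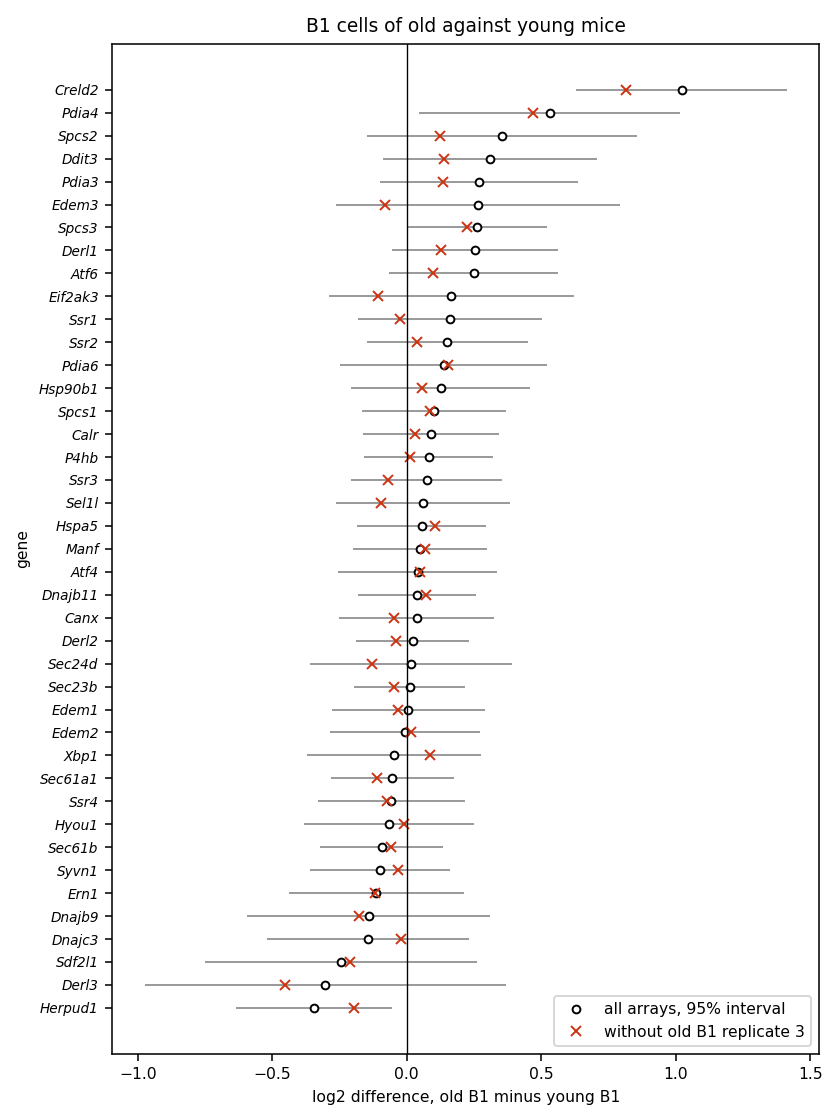
Log2 difference between old and young B1 cells for each of the 41 genes, ordered by size; circles use all arrays with the 95% interval of the limma fit as a line, and crosses leave out the third old B1 array. Creld2 lies at 1.02 with all arrays and at 0.82 without that array, and the other genes lie between -0.34 and 0.53 with all arrays.

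Genes of the same pathways outside the set gave a mixed picture. Among 23 ER folding and disulfide enzymes, 8 were higher and 1 was lower in ABC than in FO cells (39.1% called, against 9.96% of all genes; median 0.24). Against B1 cells 4 were higher and 3 lower in ABC (30.4%, against 12.8%; median 0.21), and in B1 against FO cells 3 were higher and 1 was lower (17.4%, against 16.4%; median 0.05). Txndc5, a disulfide isomerase, was 1.10 ± 0.19 higher in ABC than in FO cells (adjusted p = 0.0040). The glucosidase subunit Prkcsh (0.50) and the chaperone Cnpy2 (0.52) were higher too, and the oxidase Ero1b was lower (-0.43). In the degradation list outside the set 1 of 19 (5.26%, below the 9.96% of all genes) was called between ABC and FO cells, Ube2j1, a ubiquitin-conjugating enzyme of the ER membrane, at 0.52, and it was 0.61 higher against B1 cells. Of 16 oligosaccharyltransferase and related genes 0 were called between ABC and FO cells, 1 higher and 2 lower between ABC and B1 cells (18.8%), and 1 higher and 1 lower between B1 and FO cells (12.5%). Of 28 coat and cargo genes (10.7% called between ABC and FO cells), the receptors Lman1 (0.57) and Lman2 (0.59) were higher and Sec16b (-1.66) was lower in ABC than in FO cells, while 0 were higher and 1 was lower against B1 cells. Tram2, which sits beside the translocon, was 1.48 ± 0.16 higher in ABC and 0.98 ± 0.16 higher in B1 than in FO cells, as the 1 gene called higher of 16 in its list in each (6.25% and 12.5% called in all).

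Of 20 ATF4 and CHOP targets, 3 were higher and 1 was lower in ABC than in FO cells (20% called, against 9.96% of all genes). In ABC against B1 cells 1 was higher and 4 were lower (25%, against 12.8%; median -0.30), and in B1 against FO cells 5 were higher and 0 lower (25%, against 16.4%; median 0.42). The stress-induced factor Atf3 was 2.02 ± 0.39 higher in ABC than in FO cells and 6.02 ± 0.39 higher in B1 than in FO cells. Nupr1 was higher by 2.62 and 4.25 in the same comparisons, and Sesn2 was 1.74 higher in ABC than in FO cells and 1.40 higher than in B1 cells. Ddit4 was lower in ABC than in FO cells (-0.79), and Atf4 and Ddit3 themselves were not called by their brightest probe sets. The other Ddit3 probe set was called lower in B1 than in FO cells, at -0.88 (adjusted p = 0.035). Of 14 other ER stress sensors and factors, 1 was called between ABC and FO cells (7.14%) and 3 in each of the other comparisons of old cells (21.4%). Creb3l2, an ER-bound transcription factor, was called in all 3 comparisons, at 1.35 for ABC minus FO, -1.89 for ABC minus B1 and 3.24 for B1 minus FO. Of 14 cytosolic and mitochondrial heat shock genes, 1 was higher in ABC than in FO cells (Bag3, 3.04), 1 in B1 than in FO cells (Hspb1, 3.89) and 0 were called between ABC and B1 cells. Old and young B1 cells gave 0 calls in each of these 8 lists with limma.

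Transcripts that mark other cells differed between the groups as well. In bulk samples fewer cells of a type and less RNA per cell cannot be told apart. Of 11 plasma cell markers, 5 were higher and 1 was lower in ABC than in FO cells, 3 were higher and 1 was lower than in B1 cells, and 3 were higher and 2 lower in B1 than in FO cells. Sdc1 (syndecan-1) was 1.86 higher in ABC than in FO and 4.02 higher than in B1 cells, Tnfrsf17 2.03 and 2.45 higher, and Jchain 2.18 higher than in B1 cells. The lower gene was Glcci1, at -0.76 for ABC minus FO and -0.77 for ABC minus B1. In B1 minus FO, Prdm1 (2.48) and Mzb1 (0.79) were higher, and Sdc1 (-2.16) and Slamf7 (-1.93) were lower. The markers of this list thus did not move together. The summed linear intensity of the 11 ran from 15352 to 25255 in FO, 24615 to 28968 in ABC, 19763 to 23668 in old B1 and 19587 to 20535 in young B1 cells. The highest FO sum was that of replicate 2, whose Derl3 value of 8.19 was also the highest of its group. This is 1 of the 2 arrays named above as standing apart, and its peaks were not limited to these genes. Its summed intensity of the heat shock genes was the highest of FO too, at 56823 against 41206 and 44925. The list of macrophage and monocyte markers had 10 of 13 higher in ABC than in FO cells, 13 of 13 higher in B1 than in FO cells, and 1 higher and 2 lower in ABC than in B1 cells. Its sums were 1079 to 3003 in FO, 15845 to 17762 in ABC, 11736 to 29923 in old B1 and 15477 to 26512 in young B1 cells. Neutrophil markers were higher in ABC for 5 of 9 against FO and 8 of 9 against B1 cells, with sums of 450 to 9969 in FO, 20704 to 35040 in ABC and 168 to 398 in old B1 cells. Mast cell markers were higher for 3 of 8 in ABC and 6 of 8 in B1 than in FO cells, T and NK cell markers for 3 of 10 in ABC against FO and against B1 cells, and dendritic cell markers for 3 of 7 in the same 2 comparisons. Of 9 B cell markers, 1 was lower in ABC than in FO cells (Ebf1, -0.53), 2 were higher in ABC than in B1 cells (Cd22, 0.75, and Pax5, 1.35), and 1 was higher and 3 were lower in B1 than in FO cells (Blk, 0.42, against Cd22, -0.59, Ebf1, -0.53, and Pax5, -1.30), with sums of 61194 to 71109 over the 12 arrays. No probe set reads 0 on these arrays, whose lowest intensity is 3.003. Of the plasma cell markers 1 lay under the 25th percentile on all 3 old B1 arrays and 0 on all 3 of any other group, and of the neutrophil markers 2 did so in FO, 1 in ABC and 5 in old B1 cells. The part of these cells in the differences of the 41 genes was not tested.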

How the data were processed

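Transcripts of 4 sorted B cell populations were measured with 12 Affymetrix arrays, 3 a group. The values are intensity on a linear scale (3.003 to 22068), as deposited by the authors; RMA and affy are named in the submitters' processing notes, with no version or order of use. The log2 of each deposited intensity was taken, with no filter on dim probe sets and no further normalization. Of 45037 probe sets 34945 carried 1 symbol, 932 several and 9160 none. A gene was represented by its single-symbol probe set with the highest mean, which gave 18193 genes.

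A linear model with a mean for each group was fitted over all arrays (lmFit and eBayes of limma 3.58.1 in R 4.3.3), with Benjamini-Hochberg adjustment over all genes and calls under 0.05. It was tested on simulated data of 18193 genes, with 50 genes changed at each size. Of 50 genes changed by 1 on the log2 scale, 36 were recovered between ABC and FO and 29 between ABC and B1. Between B1 and FO 34 were recovered, and between old and young B1 cells 35. At 0.5 between 2 and 4 of 50 were recovered, and 5 to 8 unchanged genes were called in a comparison.

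The 42 genes and all gene lists were chosen with earlier results of these data known. Genes named with values were the sensors, Hspa5, the derlins and, per comparison, the called members of largest change; others were singled out after their values were seen. Alternatives covered the fit, the scaling, the probe set, the threshold and each array left out.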

Additional observations from a re-analysis of the deposited data

How the results depend on the processing

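Across 80 named results and 27 settings, 2160 alternative values gave 2022 on the same side of the threshold, 89 no longer past it, 49 newly past it and 0 reversed. Most of the 80 were not called in the fit as reported, so the same side mostly means no call under either. The 89 lost calls come only from the results that were called. Manf and Syvn1, called between ABC and B1 cells, are not among the 80. For ABC against FO cells (8 members called), array weights gave 20, leaving out both deviating arrays (old B1 replicate 3 and old FO replicate 2) gave 15 and centring arrays on their medians gave 5. Leaving out 1 array at a time gave 7 to 10. For ABC against B1 cells (13), fitting only the compared groups gave 5, centring on the median 7 and an adjusted p under 0.01 also 7, leaving out both deviating arrays 17, and leaving out 1 array gave 8 to 15. For B1 against FO cells (9), fitting only the compared groups gave 3 and an adjusted p under 0.01 gave 5, leaving out both deviating arrays 11, and leaving out 1 array gave 5 to 11. For old against young B1 cells (0), the count was 1, Creld2, with an intensity trend, array weights, repeated quantile normalization, genes at or above the median, log2 of intensity plus 16, the mean of the probe sets, both deviating arrays left out or the 75th percentile as a covariate, and 0 to 1 with 1 array left out. Median centring called 6311 genes between ABC and FO cells, where the fit as reported called 1812. The labels do not say whether arrays with the same replicate number belong together, and deviations from means of 3 arrays cannot settle it. Between same-numbered arrays 3 of 18 correlations of deviations were over 0.1 (range -0.39 to 0.23), and 3 of 12 arrays correlated best with their own number. With the replicate number as a block the counts were 8, 12, 8 and 0 in the order above. The simulated recovery at 0.5 was 2 to 4 of 50, with 50 genes changed at each size. Far more genes, 1812 to 2988, were called between the old populations. The simulation therefore does not give the smallest difference that can be called there.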
